A study of Danio rerio with 54 samples.

Results

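The genes asns, psat1, phgdh, ddit3, trib3 and chac1, 6 of the 31953 genes in the deposited zebrafish table, were followed across stage, genotype and treatment. They were taken by their gene symbol, and each symbol belonged to 1 Ensembl ID: asns ENSDARG00000016375, psat1 ENSDARG00000016733, phgdh ENSDARG00000001873, ddit3 ENSDARG00000059836, trib3 ENSDARG00000016200 and chac1 ENSDARG00000070426. Each of the 18 groups held 3 pools of 30 whole embryos, 54 libraries in all. The groups crossed wildtype fish of the AB strain with a germline nfe2 knockout. They also crossed water alone with 20 µM diquat, a redox-cycling herbicide, and 1 mM tert-butyl hydroperoxide (tBOOH), an organic peroxide. Dosing started at 2, 48 or 96 hours post fertilisation (hpf), and the groups are named here by that start. Per the treatment protocol, dosing lasted 4 h and embryos were frozen after 4 h of recovery, whereas the sample descriptions place RNA sampling at 2, 48 and 96 hpf. The knockout carries an 8-base deletion made with TALENs in exon 3 of nfe2, which encodes a transcription factor of the Cap'n'collar family. It was made in AB/TL hybrid embryos and the controls were AB, so the effect of the allele and that of the strain background cannot be told apart.

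In mammals these genes are known targets of the integrated stress response. Kinases that sense amino acid shortage, unfolded protein, heme shortage or double-stranded RNA phosphorylate the initiation factor eIF2, which lowers general translation and raises translation of the transcription factor ATF4. ATF4 then raises transcription of genes for amino acid synthesis, uptake and tRNA charging. Within the group, asns encodes asparagine synthetase. The products of phgdh and psat1 catalyse steps of serine synthesis from a glycolytic intermediate. The gene ddit3 encodes the transcription factor CHOP, trib3 a pseudokinase that in mammals restrains ATF4, and chac1 an enzyme that degrades glutathione. Because ATF4 is controlled largely at translation, mRNA levels of atf4 need not follow its activity.

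Counts per library were low. The reads recovered from the counts over all genes numbered 0.527 to 1.04 M per library, with a median of 0.772 M. The 6 genes together took 68 to 394 reads of each library. That median is 3.09% of the 25 M reads stated per sample, so it measures reads assigned to genes and not sequencing depth. Why the share was low was not tested, and the strand that was counted was not settled. Values below are read counts divided by 1 size factor per library, called normalised counts. They are not corrected for gene length, so they are compared within a gene. Marker sums set the 2 hpf series apart from the later series. Summed gastrula and tailbud markers ran from 81.7 to 174 at 2 hpf and did not exceed 19.6 later. Summed skeletal muscle markers ran from 6.40 to 66.2 at 2 hpf and were 5743 or more in every later library. Gastrula and tailbud are stages later than 2 hpf, and the hour of sampling was not tested. At 48 hpf the muscle sum ran from 5743 to 11738 in knockout libraries and from 11305 to 13705 in wildtype libraries. At 96 hpf marker sums differed between genotypes in water. Summed liver markers were 597 to 692 in wildtype and 63.6 to 81.2 in knockout, and summed intestinal markers were 833 to 1108 and 60.4 to 103. Summed exocrine pancreas markers were 477 to 636 and 152 to 169. Summed skeletal muscle markers went the other way, at 12948 to 13735 in wildtype and 15381 to 17615 in knockout. The liver, pancreas and intestinal lists were not silent in the 2 hpf libraries. There the liver sums were 41.6 to 117, the exocrine pancreas sums 21.3 to 95.7 and the intestinal sums, from 3 matched genes, 86.4 to 174. Differences below are therefore given as differences in marker sums, and a sum within those ranges does not measure an organ. The nfe2 transcript was still counted in knockout libraries. At 2 hpf its group means were 16.5 to 20.2 in knockout and 5.47 to 11.6 in wildtype, and later they were at most 1.93 in either genotype. The count of nfe2 therefore does not check the genotype.

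The 6 genes varied to different degrees. The ratio of the highest to the lowest of the 18 group means was 18.8 for ddit3, 13.2 for chac1, 6.56 for psat1, 5.65 for phgdh, 4.46 for trib3 and 3.22 for asns. The highest group mean was that of knockout tBOOH at 96 hpf for chac1, ddit3 and trib3. For the synthesis genes it lay elsewhere: asns was highest in knockout water at 2 hpf, phgdh in knockout tBOOH at 48 hpf and psat1 in wildtype tBOOH at 48 hpf. With groups ordered by mean, the 3 pools of neighbouring groups overlapped in 17 of 17 neighbour pairs for psat1 and phgdh and in 16 of 17 for the other genes. The single gap for chac1 lay below wildtype tBOOH at 96 hpf, and the gap for asns lay below knockout tBOOH at 2 hpf. For the rarer genes the spread between pools was near counting error. The median coefficient of variation over groups was 27.4% for trib3, where counting error alone gives 35.4%, 26.3% against 26.0% for psat1, and 22.6% against 13.6% for chac1.

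**Figure D1:**
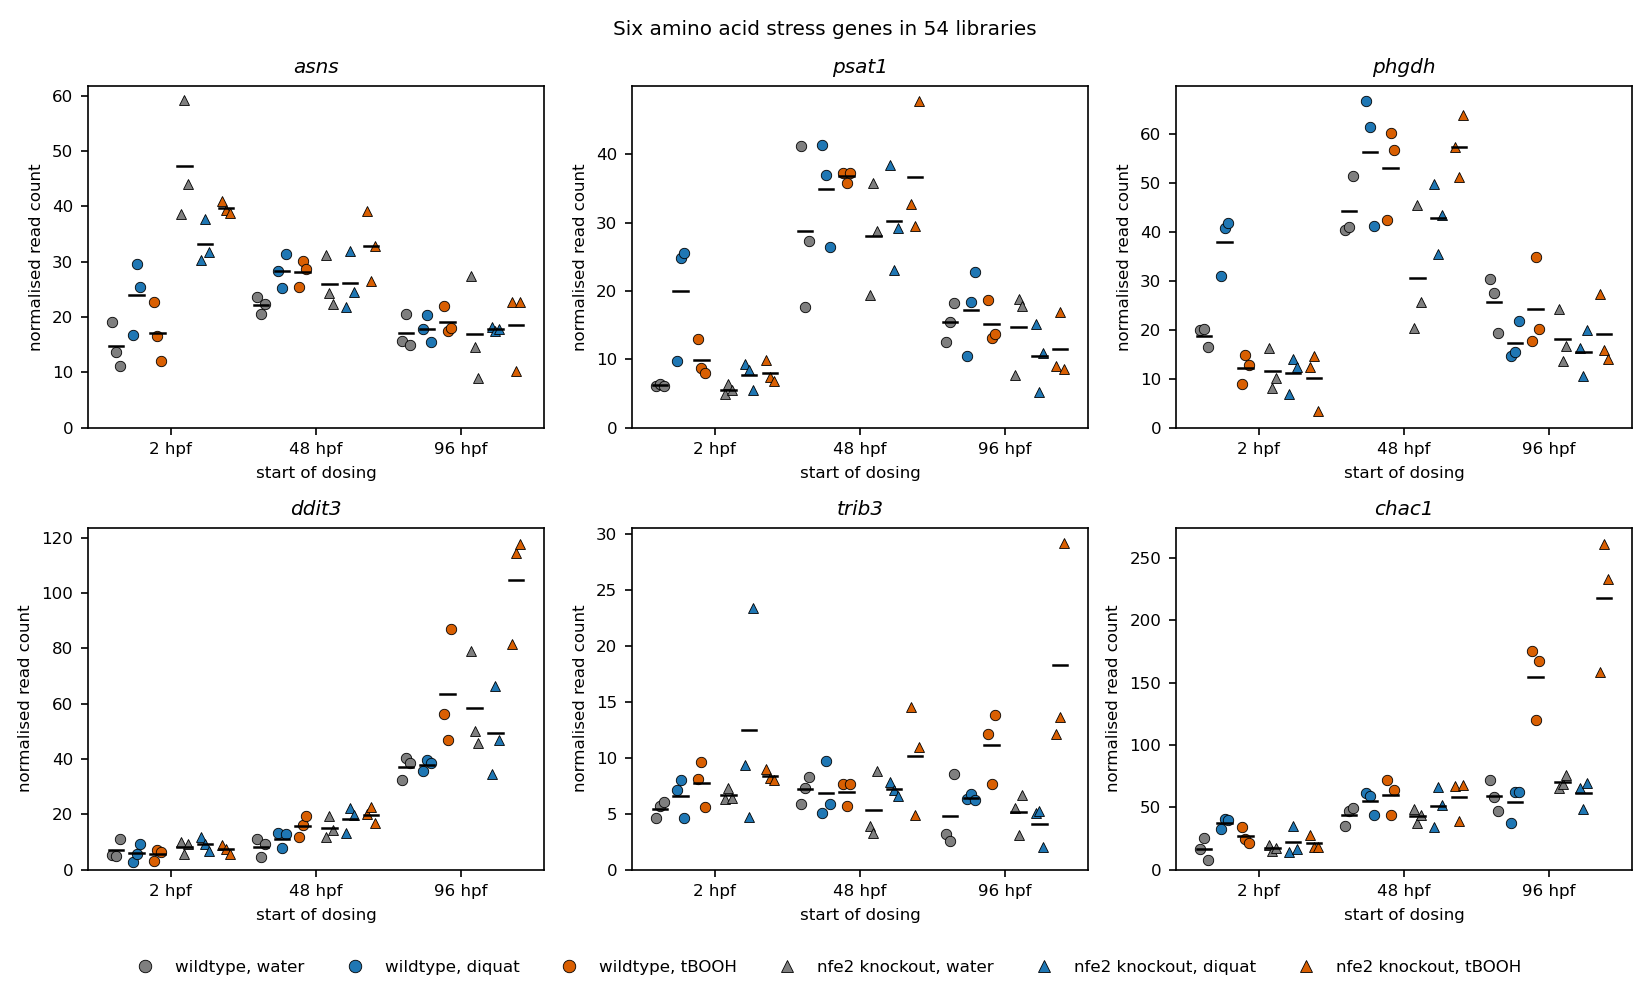
Normalised read counts (linear axis from 0) of the 6 genes in all 54 libraries, in 1 panel per gene with groups by stage, genotype and treatment; points are pools and bars are group means. The chac1 values of the 6 tBOOH libraries at 96 hpf, 120 to 262, lie above all other chac1 values. The highest group mean of asns is that of knockout water at 2 hpf, whose pools overlap those of knockout tBOOH at 2 hpf.

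Peroxide at 96 hpf was the treatment under which members passed the test. Genes were tested with limma on log2(value + 1) within a stage, and a change was called at a Benjamini-Hochberg adjusted p under 0.05 over all genes tested. In wildtype, chac1 was the called member of the 6, while 2.3% of all genes tested were called and 1.53% were called higher. In knockout, chac1 and ddit3 were called higher, while 7.49% of all genes were called and 5.46% were called higher. The scarce gene trib3 was called higher there too, but it met the low-value filter only through tBOOH libraries and is no support beside the other 2. The 3 synthesis genes were not called in either genotype. Without trib3, the median log2 change over the other 5 was 0.16 in wildtype and 0.17 in knockout, beside 0.003 and -0.002 over all genes tested.

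The glutathione-degrading gene chac1 stood at 72.3, 58.5 and 47.1 in the wildtype water pools and at 175, 120 and 167 in the wildtype tBOOH pools. In knockout it stood at 65.9, 68.9 and 75.9 in water and at 159, 262 and 234 in tBOOH. Every tBOOH pool lay above every water pool in both genotypes. The wildtype mean rose from 59.3 ± 12.6 to 154 ± 29.9 (SD, n = 3), a log2 change of 1.37 ± 0.23 (SE) with a limma adjusted p of 0.000522. The knockout mean rose from 70.2 ± 5.12 to 218 ± 53.1, a log2 change of 1.59 ± 0.23 with a limma adjusted p of 1.36e-05. Since whole embryos were pooled, a change in RNA per cell and a change in the number of cells of a type cannot be told apart.

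Levels of ddit3, which encodes CHOP, were higher in knockout with tBOOH. Its knockout values were 79.0, 50.1 and 45.7 in water and 81.7, 114 and 118 in tBOOH. The groups did not overlap, although the lowest tBOOH pool was only slightly above the highest water pool. The knockout mean was 58.3 ± 18.1 in water and 105 ± 20.0 in tBOOH, a log2 change of 0.86 ± 0.25 with a limma adjusted p of 0.0332. In wildtype the values were 32.5, 40.4 and 38.6 in water and 56.2, 46.9 and 86.9 in tBOOH. These groups did not overlap either, but the log2 change of 0.71 ± 0.25 was not called (limma adjusted p = 0.194). A fit to its 2 groups alone called it, at a limma adjusted p of 0.0241.

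The pseudokinase gene trib3 was scarce, at 2 to 27 reads per library in the whole series. Its knockout values at 96 hpf were 5.49, 3.13 and 6.69 in water and 12.1, 13.6 and 29.2 in tBOOH, a log2 change of 1.60 ± 0.47 with a limma adjusted p of 0.0303. The groups did not overlap, and 1 tBOOH pool stood well above the other 2. In wildtype the values were 3.14, 2.58 and 8.57 in water and 12.1, 7.64 and 13.8 in tBOOH. Here the groups overlapped, and the log2 change of 1.19 ± 0.47 was not called (limma adjusted p = 0.265). At 96 hpf trib3 entered the test through 5 libraries with a value of 10 or more, all of them dosed with tBOOH, so its place among the genes tested came from those groups.

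The knockout calls of ddit3 and trib3 rested on single libraries. Without knockout water replicate 2 or 3, or without knockout tBOOH replicate 2 or 3, ddit3 was no longer called, with limma adjusted p up to 0.185; trib3 lost its call without knockout water replicate 1 or 2 or knockout tBOOH replicate 3, with limma adjusted p up to 0.191. With no filter on low values both missed the threshold, at 0.0563 and 0.0628. The calls of chac1 held without each library in turn, where its limma adjusted p was at most 0.0103 in wildtype and 0.000400 in knockout.

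The synthesis genes did not pass the test with tBOOH at 96 hpf. The wildtype mean of asns was 17.1 ± 3.07 in water and 19.2 ± 2.51 in tBOOH, with a 95% interval of the log2 change from -0.53 to 0.85. In knockout it was 16.99 ± 9.48 and 18.5 ± 7.22, with an interval from -0.52 to 0.86. For psat1 the wildtype interval ran from -0.82 to 0.78 and the knockout interval from -1.10 to 0.50. For phgdh the intervals were -0.79 to 0.55 and -0.62 to 0.71.

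Diquat at 96 hpf gave 0 called members of 6 by limma in either genotype, with 0 at an unadjusted p under 0.05 and 0 by edgeR, while 0.245% of all genes were called in wildtype and 0.315% in knockout. The chac1 means were 53.97 ± 14.1 in wildtype diquat and 61.5 ± 10.99 in knockout diquat, below the water means by 0.15 and 0.20 on the log2 scale as fitted. The intervals of these changes ran from -0.62 to 0.32 and from -0.67 to 0.27. Marker sums moved with diquat in these groups. In wildtype the summed intestinal markers were 833 to 1108 in water and 435 to 538 in diquat, the liver markers 597 to 692 and 399 to 574, and the pancreas markers 477 to 636 and 187 to 291, without overlap. In knockout the liver markers were 63.6 to 81.2 in water and 107 to 243 in diquat. Both oxidant responses of a genotype share the same 3 water pools.

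Set directly against diquat, tBOOH gave higher chac1. The size of this difference uses no water pool, but the spread behind its SE and adjusted p came from all 18 libraries of the stage. The log2 difference was 1.51 ± 0.23 in wildtype (limma adjusted p = 0.000222) and 1.79 ± 0.23 in knockout (limma adjusted p = 2.38e-06). This was the called member of 6 in wildtype, where 1.68% of all genes were called and 1.17% were called higher. In knockout chac1 and ddit3 were called higher in tBOOH, while 8.18% of all genes were called and 5.31% were called higher. So was trib3, whose place among the genes tested came from the tBOOH libraries. There ddit3 differed by 1.104 ± 0.25 (limma adjusted p = 0.00457) and trib3 by 1.89 ± 0.47 (limma adjusted p = 0.00878). The trib3 difference was not called without knockout tBOOH replicate 3 (limma adjusted p = 0.0963). When only the compared groups were fitted, neither ddit3 nor trib3 was called, with limma adjusted p of 0.0608 and 0.0840, while in wildtype ddit3 was, at 0.0394 where the fit of all groups gave 0.236. In wildtype the summed intestinal markers were also apart, at 435 to 538 in diquat and 797 to 937 in tBOOH, and their part in these differences was not tested. The 2 agents were given at different doses, so these are differences between the treatments as applied.

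**Figure D2:**
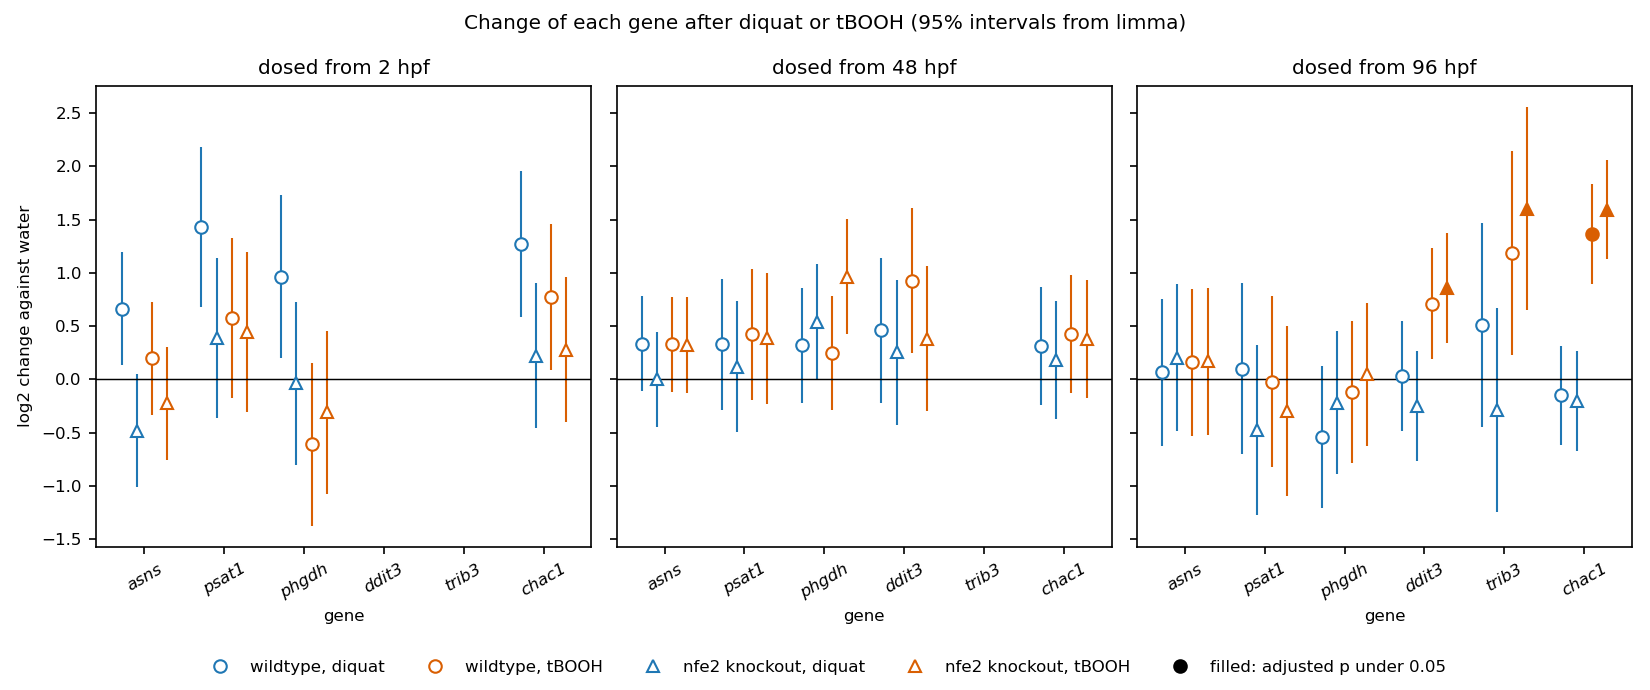
Log2 change of each gene (x axis) against water (y axis, limma estimate with its 95% interval) for diquat and tBOOH in both genotypes at the 3 stages; filled points passed the adjusted p threshold. The filled points are chac1 in wildtype tBOOH and chac1, ddit3 and trib3 in knockout tBOOH, all at 96 hpf. Genes below the low-value filter of a stage are not drawn.

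Whether the knockout answered tBOOH differently at 96 hpf was tested as an interaction. By limma 0 of 6 members were called, 0 passed at an unadjusted p under 0.05 and edgeR called 0, while 0.324% of all genes tested were called. The knockout response of chac1 exceeded the wildtype response by 0.23 on the log2 scale, with an interval from -0.43 to 0.89. The difference was 0.14 for ddit3, from -0.59 to 0.88, and 0.42 for trib3, from -0.94 to 1.77. The intervals are wide, so the calls of ddit3 and trib3 in knockout but not in wildtype do not show that the genotypes differ. The sign of both differences turned on 1 library: ddit3 fell to -0.044 without wildtype tBOOH replicate 2 and to -0.0064 without knockout water replicate 3, and trib3 to -0.022 without wildtype water replicate 3. Marker sums also moved within these groups. In knockout the summed liver markers were 63.6 to 81.2 in water and 133 to 319 in tBOOH, and the summed exocrine pancreas markers were 152 to 169 and 222 to 399. In wildtype the pancreas markers were 477 to 636 in water and 276 to 447 in tBOOH. Their part in the results for the 6 genes was not tested.

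At 2 hpf the synthesis genes and chac1 had higher means in wildtype pools dosed with diquat, but by limma none passed the adjusted threshold. The genes tested were asns, psat1, phgdh and chac1; ddit3 and trib3 reached a value of 10 in only 2 and 1 of the 18 libraries. Since psat1 met the low-value filter through 3 libraries, 2 of them wildtype diquat and 1 wildtype tBOOH, it could be tested because it was higher there, and its values are a description. By limma 0 of the 4 were called in wildtype diquat and edgeR called 1, psat1, while 0.964% of all genes were called by limma. Of the other 3, 3 passed at an unadjusted p under 0.05, as did 9.92% of all genes tested. Their median log2 change was 0.96, beside -0.01 over all genes.

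For psat1 the wildtype values were 6.13, 6.45 and 6.05 in water and 9.74, 24.8 and 25.5 in diquat, a log2 change of 1.43 ± 0.37 (limma adjusted p = 0.0533). For chac1 they were 16.8, 25.0 and 7.77 in water and 32.8, 40.8 and 39.5 in diquat, a log2 change of 1.27 ± 0.33 (limma adjusted p = 0.0620). All diquat pools were above all water pools for both. The share of all genes set apart in this way was not counted, and psat1 met the low-value filter through wildtype oxidant libraries. For phgdh the water values were 19.9, 20.2 and 16.4 and the diquat values 31.0, 40.8 and 41.8, again without overlap, with a log2 change of 0.96 ± 0.37 (limma adjusted p = 0.328). For asns the groups overlapped, at 19.2, 13.7 and 11.2 in water and 16.8, 29.6 and 25.5 in diquat, and the log2 change was 0.67 ± 0.26 (limma adjusted p = 0.332).

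The calls of these wildtype values depended on the setting. For chac1 a pseudocount of 5 gave a limma adjusted p of 0.0475. With only the compared groups in the limma fit, phgdh and chac1 passed at 0.00924 and 0.0106 instead. Leaving out 1 library at a time, chac1 passed without wildtype water replicate 2 (limma adjusted p = 0.0229) and at most reached 0.398. For psat1, whose test was conditioned on the wildtype oxidant libraries as said, the adjusted p was 0.0273 with a pseudocount of 5, 0.0111 by edgeR's quasi-likelihood test on the recovered reads and 0.0121 by limma without wildtype diquat replicate 1.

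Knockout pools at 2 hpf gave no call of these genes with diquat. By limma 0 of the 4 were called, 0 passed at an unadjusted p under 0.05 and edgeR called 0, while 3.74% of all genes were called. The asns values were 38.7, 59.2 and 44.1 in water and 30.3, 37.7 and 31.7 in diquat, a log2 change of -0.48 ± 0.26. The means in water and diquat were 17.2 and 21.8 for chac1 and 5.605 and 7.78 for psat1. The knockout response was below the wildtype response for asns, chac1 and phgdh, with log2 differences of -1.15 ± 0.37, -1.05 ± 0.47 and -1.002 ± 0.53. For psat1 the difference was -1.04 ± 0.52, a description only, since wildtype oxidant libraries carried it past the low-value filter. Among these differences limma called 0 and edgeR called 0, with 2, asns and chac1, at an unadjusted p under 0.05; the limma adjusted p of asns was 0.152. Of all genes tested 0.938% were called and 13.4% passed unadjusted.

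With tBOOH at 2 hpf, limma called 0 of the 4 tested genes in wildtype, where 2.83% of all genes were called, and 0 in knockout, where 0% were. At an unadjusted p under 0.05 there were 1, chac1 in wildtype at 34.2, 24.4 and 21.7, and 0, beside 19.3% and 6.13% of all genes. By edgeR there were 0 in each. In the genotype difference of that response, 0 of the 4 were called by limma or by edgeR and 0 passed at an unadjusted p under 0.05, while 0.0128% of all genes were called.

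The serine synthesis gene phgdh differed between the oxidants in wildtype at 2 hpf. It stood at 31.0, 40.8 and 41.8 in diquat and at 8.95, 14.8 and 12.9 in tBOOH. Every tBOOH pool was below every diquat pool, with a log2 difference of -1.57 ± 0.37 (limma adjusted p = 0.0116). It was the called member of the 4 tested, while 5.73% of all genes were called and 2.52% were called lower. Without wildtype diquat replicate 2 or 3, or without wildtype tBOOH replicate 3, the limma adjusted p was 0.0533, 0.0517 and 0.0515. In knockout, limma called 0 of the 4, 0 passed at an unadjusted p under 0.05 and edgeR called 0, while 1.3% of all genes were called.

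At 48 hpf no response of the members passed. All but trib3 were tested, and limma called 0 of 5 in each of the 4 responses, as did edgeR. At an unadjusted p under 0.05 there were 0 in wildtype diquat, 1 in wildtype tBOOH, 1 in knockout diquat and 1 in knockout tBOOH, beside 5.36%, 7.86%, 3.28% and 8% of all genes. Few genes were called in these comparisons at all: 0.0411%, 0.165%, 0% and 0.195% of those tested. The largest member change was that of phgdh in knockout, at 20.4, 45.5 and 25.6 in water and 57.3, 51.1 and 63.8 in tBOOH, a log2 change of 0.96 ± 0.26 (limma adjusted p = 0.288). The second water pool stood apart from the other 2, and without it the limma adjusted p was 0.0166. In these groups the pools also differed in marker sums. The intestinal sum was 160 in the second water pool and 10.7 or little more in the other 2. In tBOOH it was 5.46, 644 and 216. The liver sums were 21.4, 121 and 16.8 in water and 23.6, 301 and 169 in tBOOH. The first tBOOH pool differed most from its replicates, with a chi-square per gene of 10.7 and 9.47, and without it the limma adjusted p of phgdh was 0.0654. The part of these markers in the phgdh values was not tested. In wildtype tBOOH, ddit3 stood at 11.9, 16.0 and 19.5 against 10.9, 4.401 and 9.11 in water, without overlap (log2 change 0.93 ± 0.33, limma adjusted p = 0.454).

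The genotype differences of the 48 hpf responses and the differences between the oxidants also gave 0 called members by limma and by edgeR, with 0 at an unadjusted p under 0.05. The share of all genes called was 0% in both genotype differences, 0.0308% for tBOOH against diquat in wildtype and 0.154% in knockout. For chac1 the interval of the genotype difference in the tBOOH response ran from -0.83 to 0.73 on the log2 scale.

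In water, asns separated the genotypes at 2 hpf. It stood at 19.2, 13.7 and 11.2 in wildtype and at 38.7, 59.2 and 44.1 in knockout. Every knockout pool lay above every wildtype pool. The means were 14.7 ± 4.05 and 47.3 ± 10.6 (SD, n = 3), a log2 difference of 1.63 ± 0.26 with a limma adjusted p of 3.01e-05. In both oxidants too the knockout asns values, 30.3 to 41.0, lay above those of the wildtype, 12.1 to 29.6. It was the called member of the 4 tested, in a comparison in which 31.3% of all genes were called and 15.9% were called higher in knockout. A call alone therefore does not set asns apart from other genes there. The call held in each setting and without each library in turn, where its limma adjusted p was at most 0.000422. Marker sums also differed between these water pools. The gastrula and tailbud sums were 149 to 174 in wildtype and 92.7 to 117 in knockout. The sums of the exocrine pancreas list were 68.9 to 90.4 and 21.8 to 33.7. The part of these marker differences in the asns difference was not tested.

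The genotype difference in asns at 2 hpf was not seen later. At 48 hpf its means in water were 22.2 ± 1.53 and 26.0 ± 4.59, and at 96 hpf 17.1 ± 3.07 and 16.99 ± 9.48. The intervals of the log2 difference were -0.24 to 0.66 and -0.82 to 0.56. At 48 hpf limma called 0 of 5 members between genotypes in water, with 2, ddit3 and phgdh, at an unadjusted p under 0.05 and 0 by edgeR, while 2.49% of all genes were called and 19.2% passed unadjusted. The ddit3 values were 10.9, 4.401 and 9.11 in wildtype and 11.7, 19.5 and 14.4 in knockout (log2 difference 0.87 ± 0.33, limma adjusted p = 0.150). The phgdh difference was -0.59 ± 0.26 (limma adjusted p = 0.215), and without the knockout water replicate 2 named above its limma adjusted p was 0.0277. At 96 hpf limma called 0 of 6, with 1, ddit3, at an unadjusted p under 0.05 and 0 by edgeR, while 23% of all genes were called and 34.8% passed unadjusted. There the lowest knockout ddit3 value, 45.7, lay above the highest wildtype value, 40.4, and the log2 difference was 0.60 ± 0.25 (limma adjusted p = 0.0869). Fitted with only the compared groups, that adjusted p was 0.0208. The liver, intestinal, pancreas and muscle sums of these water pools also differed, as given above, and their part in the ddit3 difference was not tested. In the genotype difference of the diquat response at 96 hpf, limma called 0 of 6, edgeR 0 and 0 passed at an unadjusted p under 0.05, while 0.00874% of all genes were called.

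Through development in water psat1, phgdh and chac1 were called higher over the first step and ddit3 over the second in both genotypes. Calls over these steps were common among all genes, as given below, so a call alone does not set these genes apart. Between 2 and 48 hpf psat1, phgdh and chac1 were called higher in wildtype, 3 of 6, while 58.4% of all genes were called and 38.3% were called higher. The psat1 mean went from 6.21 ± 0.22 to 28.7 ± 11.9, phgdh from 18.8 ± 2.10 to 44.3 ± 6.14 and chac1 from 16.5 ± 8.62 to 44.0 ± 7.61. The log2 changes were 1.97 ± 0.35, 1.19 ± 0.34 and 1.48 ± 0.30, with limma adjusted p of 4.39e-06, 0.00225 and 2.91e-05. The median of all genes itself changed by 0.39, and above that median the changes were 1.58, 0.80 and 1.09. The same 3 genes were called higher in knockout, with log2 changes of 2.10 ± 0.35, 1.31 ± 0.34 and 1.28 ± 0.30, in a comparison with 57.8% of all genes called, 38.9% higher and 18.9% lower.

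In knockout 5 of 6 were called over this step. There asns fell by 0.83 ± 0.28 on the log2 scale (limma adjusted p = 0.00910), from the raised level at 2 hpf, and ddit3 rose by 0.83 ± 0.34 (limma adjusted p = 0.0325). Both calls depended on single libraries. Without 2 hpf knockout water replicate 2 the limma adjusted p was 0.0653 for asns and 0.175 for ddit3, and ddit3 also missed the threshold without 48 hpf knockout water replicate 2 or 3 (limma adjusted p of 0.149 and 0.0564), with TMM rescaling (0.0656), without the low-value filter (0.0546) and with the replicate block (0.0613). In wildtype asns gave a log2 change of 0.59 ± 0.28 (limma adjusted p = 0.0638), and without 2 hpf wildtype water replicate 1 it was called (0.0282). With 1 library left out the count ran from 3 to 4 in wildtype and from 3 to 5 in knockout. The genotype difference in this step was not tested.

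Between 48 and 96 hpf ddit3 was the called member in both genotypes, while 28% of all genes were called in wildtype, 19.7% higher, and 19.7% in knockout, 14% higher. Its wildtype values were 10.9, 4.401 and 9.11 at 48 hpf and 32.5, 40.4 and 38.6 at 96 hpf, without overlap. The log2 change was 2.13 ± 0.34 in wildtype (limma adjusted p = 1.54e-06) and 1.86 ± 0.34 in knockout (limma adjusted p = 3.80e-05), or 1.93 and 1.71 above the median of all genes. The synthesis genes had lower values at 96 than at 48 hpf. For psat1 the log2 changes were -0.79 ± 0.35 in wildtype and -0.93 ± 0.35 in knockout, and for phgdh -0.78 ± 0.34 and -0.68 ± 0.34, with limma adjusted p from 0.0540 to 0.160. When libraries were rescaled by TMM, which moved the median of all genes by -0.18 in both genotypes (and by -0.13 between 2 and 48 hpf in wildtype), psat1 and phgdh in wildtype and psat1 and asns in knockout were also called lower, with limma adjusted p of 0.0388, 0.0322, 0.0214 and 0.0183. The direction was the same under both scalings.

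**Figure D3:**
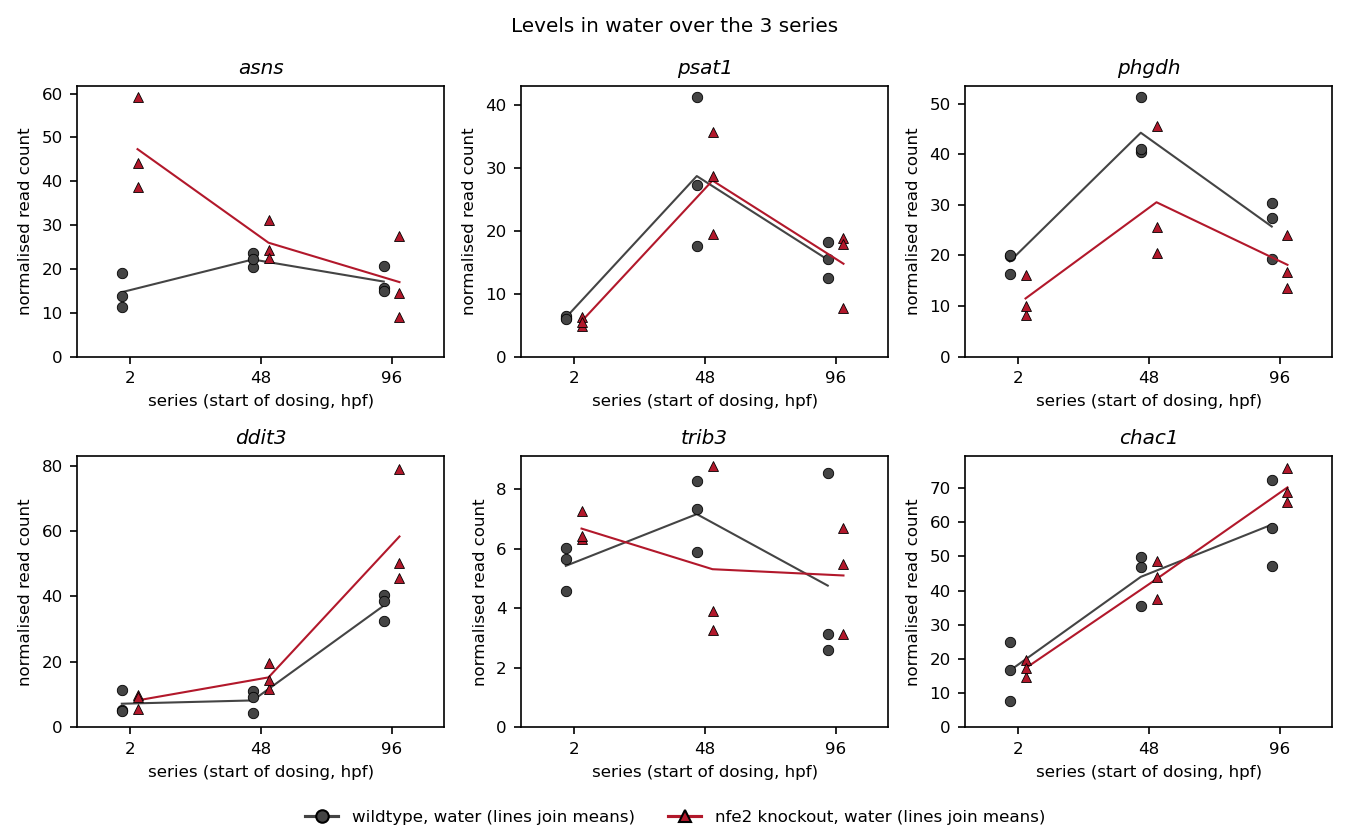
Normalised read counts (linear axis from 0) of the 6 genes in the water libraries at 2, 48 and 96 hpf in wildtype and knockout; points are pools and lines join group means. Levels of ddit3 in wildtype lie between 4.401 and 11.2 up to 48 hpf and between 32.5 and 40.4 at 96 hpf, while asns is apart between genotypes at 2 hpf.

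Whether the responses differed between stages was tested as contrasts of 2 responses, which were added after the responses had been seen. In the 12 contrasts limma called 0 of 6 members, as did edgeR, with 0 to 3 at an unadjusted p under 0.05, while 0% to 2.27% of all genes were called and 5.48% to 12.3% passed unadjusted. For 48 against 2, 96 against 48 and 96 against 2 hpf, those shares were 0.295%, 0.00757% and 0.227% for diquat in wildtype and 0.174%, 0.204% and 0.719% for tBOOH in wildtype. In knockout they were 0%, 0.0227% and 0.0379% for diquat and 0.0984%, 0.689% and 2.27% for tBOOH. The chac1 response to tBOOH in knockout was larger at 96 than at 2 hpf by 1.31 ± 0.42 on the log2 scale (limma adjusted p = 0.0880). With a pseudocount of 5 its limma adjusted p was 0.0292, and without 96 hpf knockout tBOOH replicate 1 it was 0.0499. Against 48 hpf the difference was 1.21 ± 0.42 (limma adjusted p = 0.220). The chac1 response to diquat in wildtype was lower at 96 than at 2 hpf by -1.42 ± 0.42 (limma adjusted p = 0.221). The tBOOH response of chac1 at 96 hpf is therefore described for that stage and not as limited to it.

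The wider pathway was read from 8 lists of 101 genes, of which 99 were matched. The lists were chosen with earlier results of these data known, so counts over them are a description here and below. They cover eIF2 kinases and phosphatase, ATF and C/EBP factors, serine, one-carbon and proline synthesis, sulfur amino acids, transaminases, amino acid transporters, cytosolic aminoacyl-tRNA synthetases and other ATF4 and CHOP targets. With tBOOH at 96 hpf, 7 of the 82 listed genes tested were called higher in wildtype and 0 lower, and 9 higher and 0 lower in knockout. Of all genes, 2.3% were called in wildtype, 1.53% higher, and 7.49% in knockout, 5.46% higher. The median log2 change over the 82 was 0.22 and 0.23, beside 0.003 and -0.002 over all genes. Listed genes that met the low-value filter only through tBOOH libraries were not counted apart. The 20 tRNA synthetases and the 9 genes of serine, one-carbon and proline synthesis gave 0 calls by limma and by edgeR in either genotype. At an unadjusted p under 0.05 there were 3 synthetases and 1 synthesis gene in wildtype, and 2 and 1 in knockout, beside 11.6% and 19.2% of all genes.

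Factors and feedback genes were among those called. The stress-induced factor atf3 went from 8.12 ± 4.88 to 33.6 ± 7.39 in wildtype, a log2 change of 2.02 ± 0.36 (limma adjusted p = 0.000990), and from 4.00 ± 0.75 to 73.3 ± 16.57 in knockout, a change of 3.88 ± 0.36. The eIF2 phosphatase subunit gene ppp1r15a, which in mammals encodes the protein that ends eIF2 phosphorylation, went from 17.8 ± 2.46 to 48.0 ± 15.6 in wildtype (log2 change 1.33 ± 0.30, limma adjusted p = 0.0122). The autophagy receptor gene sqstm1 rose by 1.22 ± 0.22 in wildtype and by 2.56 ± 0.22 in knockout on the log2 scale. The neutral amino acid transporter gene slc1a5 rose by 1.21 ± 0.26 in wildtype. In knockout cebpb, a C/EBP factor, rose by 3.58 ± 0.46 and the stress-linked gene nupr1 by 2.79 ± 0.29. The knockout water means of atf3 and cebpb, 4.00 and 4.40, lay below the filter value of 10, as did the wildtype water mean of atf3, 8.12. Which libraries carried these 2 genes past the filter was not counted. Their calls may therefore depend on the tBOOH groups in which they were high, and are a description. With 1 library left out, the wildtype calls of atf3 and sqstm1 and the knockout calls named here held. For atf3 and cebpb this does not remove the limit set by the filter. The slc1a5 call was lost without wildtype water replicate 1 or wildtype tBOOH replicate 3 (limma adjusted p up to 0.0809), and the ppp1r15a call without wildtype water replicate 1 or 3 or wildtype tBOOH replicate 1 or 3 (up to 0.125).

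The atf4 genes themselves, chosen here after their values were seen, were not called by limma in any oxidant response. At 96 hpf in knockout atf4a stood at 76.9 ± 11.5 in water and 117 ± 16.3 in tBOOH (log2 change 0.60 ± 0.22, limma adjusted p = 0.108), and atf4b at 78.0 ± 9.83 and 97.6 ± 13.9 (0.32 ± 0.21, limma adjusted p = 0.444). In wildtype the changes were 0.18 ± 0.22 and 0.16 ± 0.21. At 2 hpf in wildtype diquat atf4b went from 36.9 ± 3.51 to 66.4 ± 13.2, a log2 change of 0.82 ± 0.21 (limma adjusted p = 0.0581). This change was called by edgeR on the recovered reads (adjusted p = 0.0280), which called neither atf4 gene in the other oxidant responses.

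**Figure D4:**
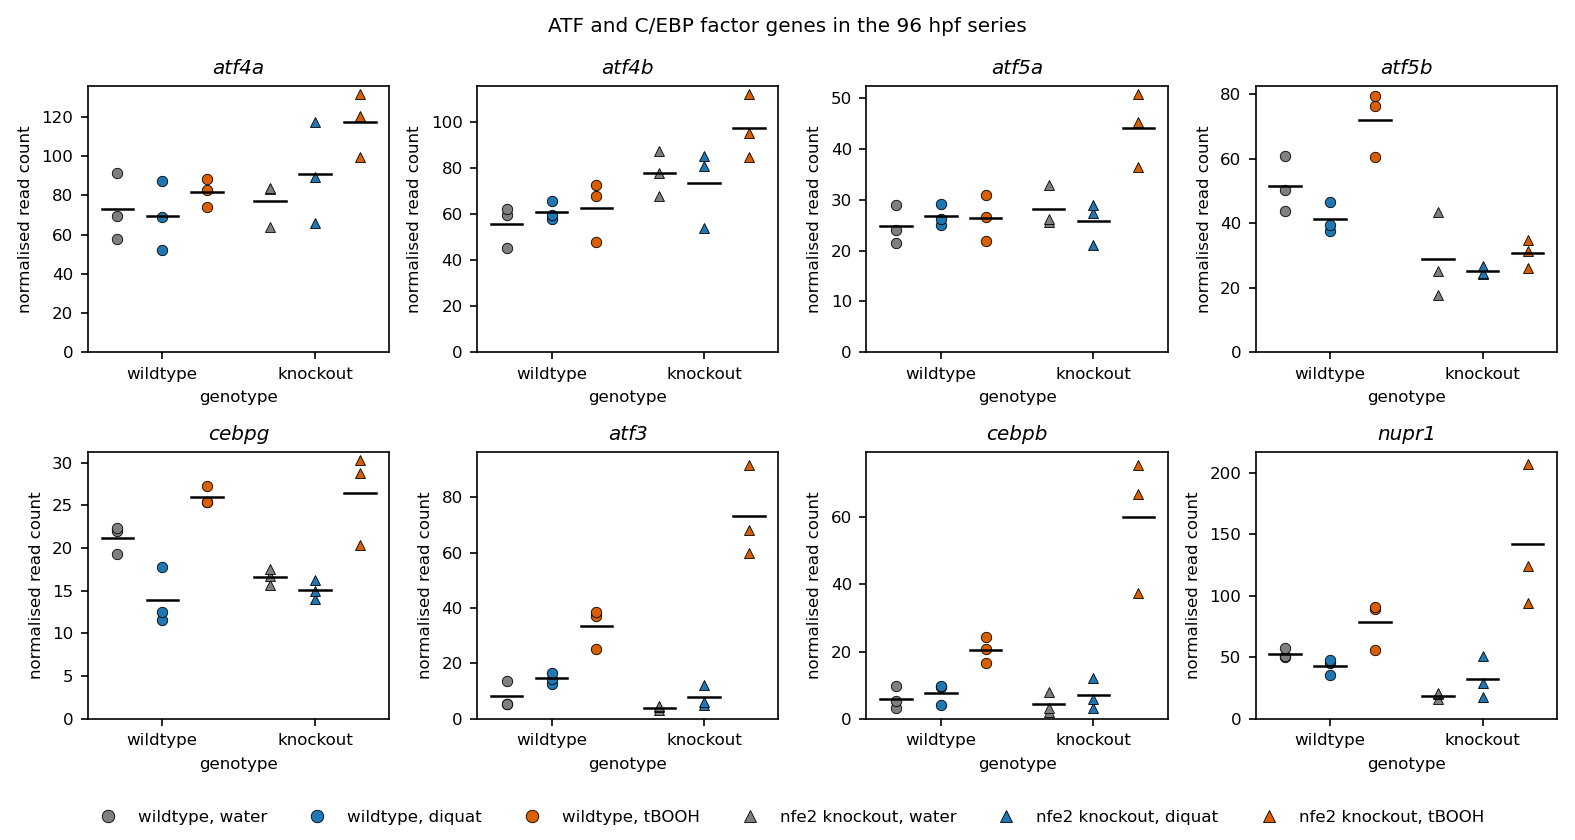
Normalised read counts (linear axis from 0) of 8 ATF, C/EBP and nupr1 factor genes at 96 hpf in water, diquat and tBOOH in both genotypes; points are pools and bars are group means. In knockout atf3 stands at a mean of 4.00 in water and 73.3 in tBOOH, while atf4a stands at 76.9 and 117.

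At 2 hpf the listed genes gave few calls against water. In wildtype diquat limma called 0 of 60, with 10 at an unadjusted p under 0.05 and 2 by edgeR, while 0.964% of all genes were called and 9.92% passed unadjusted. In wildtype tBOOH, where 2.83% of all genes were called and 1.36% lower, it called 1 lower, the isoleucyl-tRNA synthetase gene iars (27.4 ± 5.01 to 13.5 ± 6.26, log2 change -1.04 ± 0.28, limma adjusted p = 0.0440). In knockout diquat, where 3.74% were called and 3.11% higher, it called 1 higher, psph, which encodes the phosphatase that completes serine synthesis after phgdh and psat1 (408 ± 103 to 668 ± 130, log2 change 0.72 ± 0.19, limma adjusted p = 0.0394). Between tBOOH and diquat in wildtype 7 of 60 were lower in tBOOH and 0 higher, while 5.73% of all genes were called and 2.52% lower. Of these 6 were among the 20 tRNA synthetases, including aars at -1.03 ± 0.20, kars at -0.95 ± 0.21 and eprs at -0.82 ± 0.21 on the log2 scale. The median of the 20 was -0.69, beside 0.05 over all genes. Leaving out single libraries ended several of these calls. The iars fall against water was lost without wildtype water replicate 1 or 2 or wildtype tBOOH replicate 2 or 3 (limma adjusted p up to 0.281), and without the filter (0.0827). The psph call was lost without knockout diquat replicate 3 or knockout water replicate 1 or 2 (up to 0.257), without the filter (0.0731), with TMM rescaling (0.0638) and with only the compared groups (0.0964). Between the oxidants kars was lost without wildtype tBOOH replicate 2 or 3 (up to 0.0781) and eprs also without wildtype diquat replicate 1 or 3 (up to 0.108), while aars held (at most 0.0355). The phgdh difference lay in the same comparison and used the same pools.

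Between genotypes in water the share of listed genes called was not above that of all genes. At 2 hpf 6 of 60 were called higher and 9 lower in knockout, 25% in all, while 31.3% of all genes were called, 15.9% higher and 15.4% lower. The psph mean was 160 ± 20.0 in wildtype and 408 ± 103 in knockout (log2 difference 1.32 ± 0.19), nars, for asparaginyl-tRNA synthetase, was higher by 0.85 ± 0.22, and the transporter subunit gene slc3a2b was lower, at -1.30 ± 0.33. The gastrula and tailbud sums of these 2 hpf water pools also differed, as given above, and their part in these differences was not tested. At 96 hpf 3 of 82 were higher and 14 lower, 20.7% in all, while 23% of all genes were called, 9.92% higher and 13.1% lower. The lower genes included sqstm1, at 52.5 ± 11.2 in wildtype and 12.3 ± 1.91 in knockout, nupr1, at 52.9 ± 4.10 and 18.8 ± 2.77, and the alanine transaminase gene gpt2l, at 45.6 ± 3.12 and 13.0 ± 1.83. These were the libraries in which the summed liver and intestinal markers were lower in knockout, and their part in these differences was not tested.

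The members were compared with each other after the mean of each stage was removed from log2(value + 1), over 54 libraries that share depth and treatment groups. The highest correlations were 0.47 between trib3 and chac1 and 0.44 between psat1 and phgdh, and the other 13 pairs ran from -0.19 to 0.30. Among 13205 genes, those most like chac1 by the same measure were mcl1b (r = 0.74), pik3ip1 (0.73) and klhl38b (0.69). For asns they were si:dkey-15j16.6 (0.76), mdka (0.70) and samd7 (0.70), and for phgdh atf5b (0.67), si:ch211-245g11.3 (0.67) and si:ch211-231b5.9 (0.65). For ddit3 they were ppdpfb (0.66), si:ch211-114l13.11 (0.66) and h1fx (0.65), for trib3 tgif1 (0.68), prelid3b (0.67) and adgre10 (0.66), and for psat1 chp1 (0.63), COL23A1 (0.62) and ptenb (0.59).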

How the data were processed

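Per the labels' protocols, total RNA from pools of embryos was made into directional poly(A) libraries with a dUTP step and read as paired ends. Per the submitters' processing notes the tools were FastQC 0.11.4, TopHat2 2.0.14, Bowtie2 2.2.5, SAMtools 0.1.19, HTSeq, DESeq2 1.10.1 and R 3.2.3, with the build GRCz10. Whether HTSeq counted by strand is not given in the sources used here. In a stranded count mt-nd6, the mitochondrial mRNA of the opposite strand, is a check. It lay above the median of the other 12 mitochondrial mRNAs in 54 of 54 libraries and above all 12 in 44 of 54. Whether reads were counted on the sense strand was therefore not settled, and this limit holds for all values given here. In the GRCz12tu annotation, used for names and neighbours only, none of the 6 genes overlaps another gene.

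The deposited signal is the count of each gene that the authors divided by a size factor of its library (0.571 to 1.42). Each value was a whole multiple of 1 step (100%, within 0.01 read), which gave whole reads; in 3 columns the size factor lay too near 1 for this to decide much. The median of recovered reads is 3.09% of the 25 M reads stated per sample.

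For each stage limma 3.58.1 in R 4.3.3 was fitted to log2(value + 1) of 18 libraries in 6 groups, with empirical Bayes and a mean trend, on the genes of which 3 or more libraries reached a value of 10 (7783, 9725 and 11436 in the order of the stages). A fit of 54 libraries (13205 genes) served the stage comparisons. P-values were adjusted within each comparison over all genes tested, in 31 comparisons and 12 added after the data were seen. Fold changes on this scale understate changes of low genes, and intervals are 95% limma intervals. Where groups are said not to overlap, the share of all genes doing so was not counted. The fits were tested on simulated data for wildtype tBOOH against water. Changes of 1 on the log2 scale were recovered for 56%, 28% and 50% of 100 genes at 2, 48 and 96 hpf, and of 2 for 96%, 93% and 93%. Calls of unchanged genes numbered 6, 4 and 8. The changed genes were drawn from those with a mean value of 10 or more in the stage, so these shares need not hold for scarcer genes such as trib3.

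Alternatives were a replicate block, TMM rescaling, no filter, a pseudocount of 5, edgeR 4.0.16 (quasi-likelihood) on the recovered reads, only the compared groups, and leaving out each library. Nothing in the labels says that pools came from separate clutches, so p-values measure the spread between pools. No 2 replicates of a group agreed within sampling noise: their chi-square per gene was 1.21 to 10.7. Pairs across groups were not compared. The members, lists and comparisons were chosen with earlier results of these data known. Named genes are the members, up to 4 called list genes of smallest p per comparison and the 3 genes most like each member; some the rule takes are left out, and ones outside it are marked.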

Additional observations from a re-analysis of the deposited data

Results flagged for a closer look

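By a test of the difference itself, 2 listed genes differed in their response between genotypes. Of all genes tested, 0.938% were called in the genotype difference of the 2 hpf diquat response. In that of the 96 hpf tBOOH response 0.324% were called. The 2 hpf diquat response of mthfd2, a mitochondrial one-carbon enzyme gene, was lower in knockout by -2.29 on the log2 scale (limma adjusted p = 0.0169). The 96 hpf tBOOH response of nupr1 was higher in knockout by 2.25 (limma adjusted p = 0.00562). In water at 96 hpf the nupr1 means were 52.9 in wildtype and 18.8 in knockout. Marker sums also moved with tBOOH in these 96 hpf groups, as given above, and their part in the nupr1 difference was not tested. The mthfd2 difference missed the threshold without wildtype diquat replicate 2, wildtype water replicate 3 or knockout water replicate 1 or 2 (limma adjusted p up to 0.0662). Which libraries carried mthfd2 past the low-value filter was not counted. The nupr1 difference held without each library (limma adjusted p at most 0.0347).

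Responses to tBOOH also differed between stages for the listed genes named here, in contrasts added after the data were seen. At most 4 called genes of smallest p are named per contrast, so the full number of listed genes called is not given. Of all genes, 0.719% were called for 96 against 2 hpf in wildtype. In knockout 2.27% were called for 96 against 2 hpf and 0.689% for 96 against 48 hpf. In wildtype the iars response was higher at 96 than at 2 hpf by 1.67 on the log2 scale. In knockout the 96 hpf response exceeded the 2 hpf response by 3.42 for cebpb, 3.18 for atf3, 2.41 for nupr1 and 2.04 for sqstm1, and the nupr1 response at 96 hpf exceeded that at 48 hpf by 2.59. Which libraries carried these listed genes past the low-value filter was not counted here either, a limit given above for atf3 and cebpb. With edgeR on the recovered reads, the 96 against 2 hpf differences of atf3 and nupr1 had adjusted p of 0.174 and 0.143. With 1 library left out, the cebpb and atf3 differences held (limma adjusted p at most 0.0197 and 0.0218). The iars difference was lost without 2 hpf wildtype tBOOH replicate 3, 96 hpf wildtype water replicate 3 or 96 hpf wildtype tBOOH replicate 3 (up to 0.0852), and that of sqstm1 without 2 hpf or 96 hpf knockout water replicate 1 or 2 hpf knockout tBOOH replicate 2 (up to 0.0662). The nupr1 difference from 2 hpf was lost without 2 hpf knockout water replicate 2 or 96 hpf knockout tBOOH replicate 1 (up to 0.0763). That from 48 hpf was lost without 48 hpf knockout water or tBOOH replicate 2, 96 hpf knockout water replicate 3 or 96 hpf knockout tBOOH replicate 1 (up to 0.0731).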

How the results depend on the processing

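Of the values of named genes, 576 of 611 under other settings and 755 of 823 with 1 library left out kept their direction and their side of the threshold. The count of members called changed as follows, and the cause was not tested. The share of all genes called under each setting, or without each library, is not given here. These counts therefore describe the dependence on the setting and are not a result about the members. For wildtype diquat at 2 hpf it was 0 and became 2 with a pseudocount of 5, 1 with edgeR, 2 with only the compared groups and 1 with the replicate block. The counts with a pseudocount of 5 and with edgeR include psat1, which met the low-value filter through wildtype oxidant libraries. For 96 against 48 hpf in water it was 1 in each genotype and became 2 in both with a pseudocount of 5, 3 in both with TMM rescaling, 3 in wildtype and 2 in knockout with edgeR, and 2 in knockout with the replicate block. For knockout water at 48 against 2 hpf it was 5 and became 4 with TMM rescaling, without the filter and with the replicate block. For knockout tBOOH at 96 hpf it was 3 and became 1 without the filter, where more genes are tested. For the knockout tBOOH response at 96 against 2 hpf it was 0 and became 1 with a pseudocount of 5. With only the compared groups, where fewer libraries estimate the spread, the 96 hpf counts went from 1 to 2 for wildtype tBOOH against water and against diquat, from 0 to 1 between genotypes in water, and from 3 to 1 for tBOOH against diquat in knockout.

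Without 1 library the counts ranged from 0 to 1 for wildtype diquat, and for wildtype tBOOH against diquat, at 2 hpf, for knockout tBOOH and for the genotypes in water at 48 hpf, and for the knockout tBOOH response at 96 against 2 hpf. They ranged from 1 to 3 for knockout tBOOH at 96 hpf, from 2 to 3 for knockout tBOOH against diquat at 96 hpf, from 3 to 4 for wildtype water at 48 against 2 hpf, from 3 to 5 for knockout water at 48 against 2 hpf and from 1 to 2 for water at 96 against 48 hpf in each genotype. The genotype difference in the 96 hpf tBOOH response ranged from -0.044 to 0.39 for ddit3 and from -0.022 to 0.69 for trib3, and the ddit3 value without knockout water replicate 3 was -0.0064.

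Replicate numbers did not pair the libraries. With group means removed, the correlation of same-numbered libraries averaged 0.0377 (2 hpf), -0.00964 (48 hpf) and -0.000254 (96 hpf), and 9, 7 and 4 of 18 went best with their own number. Under the replicate block 3 counts changed, those named above for wildtype diquat at 2 hpf (to 1) and for knockout water at 96 against 48 hpf (to 2) and at 48 against 2 hpf (to 4, where ddit3 had an adjusted p of 0.0613). Low counts limit trib3 most, at 2 to 27 reads per library.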
